A study of Homo sapiens with 6 samples.

Results

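The 205 regions described here are GABPA ChIP-seq peaks of A-375 cells, an established human melanoma line, that lie away from the ends of protein-coding genes and still carry a peak after knockout of the GABP B1 subunit. They were selected on the 3 peak lists themselves, as parental peaks overlapped by at least 1 bp by a ROSA26 knockout peak and by a B1 knockout peak. In addition, the parental summit had to lie more than 1 kb from either end of every RefSeq protein-coding gene span. Of 554 such distal peaks found in both controls, 205 (37.0%, 95% interval 33.0 to 41.2) had a B1 knockout peak and 349 did not. With each list limited to its strongest 1660 peaks, the length of the knockout list, 156 of 184 (84.8%) were kept. Over the full lists the share for all 2969 control-shared peaks was 54.8%, and because the choice of members used it, nothing is read from the difference. The 205 make up 12.6% of the 1628 control-shared peaks with a knockout peak, which in turn come from lists of 1660 B1 knockout, 3857 ROSA26 and 3024 parental peaks. All intervals are exact Clopper-Pearson 95% intervals over peaks, cover counting error only and hold for these libraries.

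ChIP-seq with 1 GABPA antibody was done in 3 conditions. In the first, exon 2 of the B1 subunit had been knocked out and TERT, the catalytic subunit of telomerase, was then knocked in. In the second, the ROSA26 locus, which serves widely as a neutral editing control, had been knocked out in a line labelled No1. Unedited parental cells were the third condition. Knockout lines were grown as clones from single sorted cells, so the B1 knockout, the TERT knock-in and the clone cannot be told apart. Each condition has 1 ChIP and 1 input library, the inputs were not analysed on their own here, and no difference has a replicate check. Where no peak is listed, the signal was below the limit of the peak caller, which does not show an unbound site. A cell type cannot be checked from peak lists, since they do not measure expression, and none of 10 melanocyte lineage genes held or lay nearest to a member (0 of 10). With 205 members against 20056 protein-coding genes, nothing about these 10 genes is read from that count.

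GABP pairs GABPA, which reads GGAA-centred sites through its ETS domain, with a B subunit that carries the activation domain and joins GABPA-B pairs into larger complexes. The factor is best known at CpG-rich promoters of housekeeping genes, among them genes of mitochondria, translation and RNA processing. Many genes have more than 1 promoter, and a promoter inside a gene's span or at a noncoding transcript counts as distal when distance is taken to the ends of protein-coding spans.

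Promoter stretches at 8 members and at a pair of distal peaks not kept show the sequence at the summits. They are taken from RefSeq promoter sequences of GRCh38.p14, run 5′ to 3′ on the strand of the named transcript, and cover up to 60 bases on either side of the parental summit, ending before the start for coding genes. Capitals mark CCGGAAG, the core of the GABP site, or its reverse complement CTTCCGG. The first 4 are members inside or beside protein-coding spans whose summits lay just upstream of a start within the gene: CYREN (chr7:135170708-135170803, minus strand), TNPO3 (chr7:129055112-129055172, minus), ZNF846 (chr19:9768739-9768830, minus) and USP30 (chr12:109052459-109052575, plus).
CYREN: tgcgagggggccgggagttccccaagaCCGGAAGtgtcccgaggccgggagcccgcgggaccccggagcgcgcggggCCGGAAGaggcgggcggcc
TNPO3: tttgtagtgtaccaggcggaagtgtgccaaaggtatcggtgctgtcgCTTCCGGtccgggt
ZNF846: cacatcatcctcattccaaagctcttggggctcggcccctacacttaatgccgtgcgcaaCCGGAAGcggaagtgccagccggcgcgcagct
USP30: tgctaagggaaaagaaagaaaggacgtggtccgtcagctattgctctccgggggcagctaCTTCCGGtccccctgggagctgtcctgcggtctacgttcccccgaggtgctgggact

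The next pair are noncoding promoters, MIATNB (chr22:26672731-26672850, plus), the strongest member near a noncoding gene, and ZIM2-AS1 (chr19:56765267-56765371, plus), which stood further up the knockout list than the parental list by the largest margin of any member. ADPRHL1 (chr13:113449318-113449408, minus) is shown for a tandem repeat of the site, of which 3 of the 7 copies in its promoter window are printed. NCAM2 (chr21:21146987-21147106, plus) stood further down the knockout list than the parental list by the largest margin. Its window holds no CCGGAAG, though the printed stretch repeats CCGGAAC, which differs in the last base. ADPRHL1, with 7 copies, also stood further down the knockout list, and no link between copies and place is read from these loci.
MIATNB: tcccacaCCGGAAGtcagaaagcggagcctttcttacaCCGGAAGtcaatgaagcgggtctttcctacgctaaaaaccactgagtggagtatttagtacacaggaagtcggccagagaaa
ZIM2-AS1: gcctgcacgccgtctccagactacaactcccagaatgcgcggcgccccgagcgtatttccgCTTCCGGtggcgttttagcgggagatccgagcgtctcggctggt
ADPRHL1: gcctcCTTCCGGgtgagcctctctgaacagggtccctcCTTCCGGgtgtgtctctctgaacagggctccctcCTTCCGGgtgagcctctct
NCAM2: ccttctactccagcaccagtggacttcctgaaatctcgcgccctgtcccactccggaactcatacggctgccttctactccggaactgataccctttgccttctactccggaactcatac

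CZ1P-ASNS (chr7:97972315-97972434, minus) and TPTE2-AS1 (chr13:19586993-19587112, plus) are strong distal control peaks without a knockout peak. Both hold the marked site, 1 copy in CZ1P-ASNS and 2 in TPTE2-AS1. No link between the site and a listed knockout peak is read from this pair.
CZ1P-ASNS: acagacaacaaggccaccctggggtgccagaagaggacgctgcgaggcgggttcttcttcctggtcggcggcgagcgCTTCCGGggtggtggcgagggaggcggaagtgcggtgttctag
TPTE2-AS1: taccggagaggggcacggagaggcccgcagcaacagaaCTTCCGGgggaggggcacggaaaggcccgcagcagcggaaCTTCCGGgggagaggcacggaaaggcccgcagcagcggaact

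Members lay in 4 kinds of place. Of the 205, 70 (34.1%, 27.7 to 41.1) lay with their summit within 1 kb of a noncoding gene's end. A further 92 (44.9%, 37.9 to 52.0) lay inside a protein-coding span without such an end nearby, 4 (1.95%) inside a noncoding span only, and 39 (19.0%, 13.9 to 25.1) in no gene span, with pseudogenes left out of the noncoding genes. The distal peaks not kept were spread in much the same way, with 114 (32.7%), 140 (40.1%), 15 (4.30%) and 80 (22.9%) of 349 in these classes, and the intervals overlapped in each class. Taken over all genome positions more than 1 kb from a coding end, 2.35% lie near a noncoding gene end, 40.5% inside a protein-coding span, 11.5% inside a noncoding span only and 45.7% in no span. Peaks near noncoding ends were therefore far more frequent than the space they occupy, among kept and not kept peaks alike. Within the classes, 38.0, 39.7, 21.1 and 32.8% of distal control-shared peaks had a knockout peak, with overlapping intervals.

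**Figure D1:**
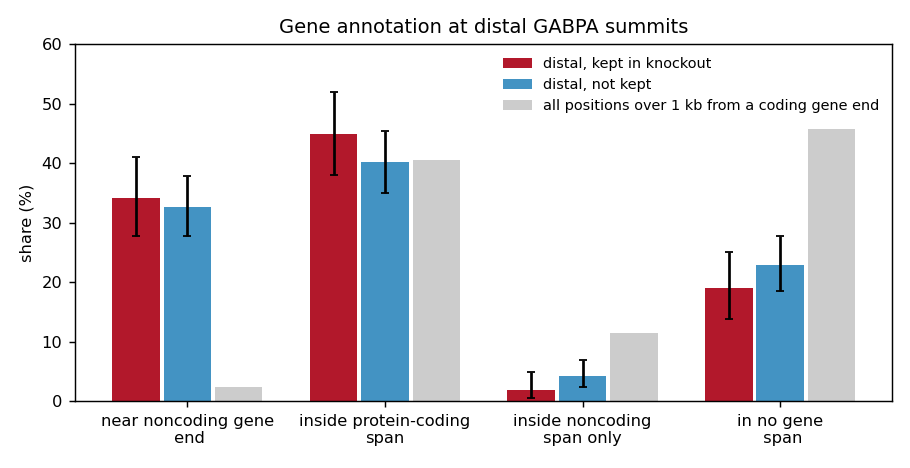
Share (%) of distal kept peaks (205), distal peaks not kept (349) and all genome positions over 1 kb from a coding gene end in 4 annotation classes, with exact 95% intervals as bars. Kept and not kept peaks have similar shares, and 34.1% of kept peaks lie near a noncoding gene end, against 2.35% of positions.

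Most members stood at an annotated transcription start. The promoter table used for this gives starts for 15843 of 20056 protein-coding and 11462 of 18330 lncRNA genes and could be applied to 196 members. Of these, 117 (59.7%, 52.5 to 66.6) had a summit within 1 kb of a start and 97 (49.5%) within 200 bp. Among distal peaks not kept the share within 1 kb was 42.0% (140 of 333, 36.7 to 47.5), among kept peaks near coding gene ends 90.5%, and of distal positions 1.00% lie so close to a start. The difference between kept and not kept distal peaks lay in coding starts. A protein-coding start lay within 1 kb of 84 members (42.9%, 35.8 to 50.1) and of 79 peaks not kept (23.7%, 19.3 to 28.7). A lncRNA start lay within 1 kb of 48 members (24.5%) and of 82 peaks not kept (24.6%).

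Among members inside a protein-coding span and away from noncoding ends, 67 of 90 (74.4%, 64.2 to 83.1) lay within 1 kb of a start, against 57 of 133 peaks not kept (42.9%, 34.3 to 51.7). Peak strength is set beside this difference here, and its part in it was not tested. Distal control-shared peaks with a start nearby were kept in 45.5% (39.3 to 51.8) and those without in 29.0% (23.7 to 34.8). Within bins of parental fold the gap was not resolved, with 2 of 84 (2.38%) kept with a start and 11 of 133 (8.27%) without in the weakest of 4 bins, 28.8 and 21.3% in the second, 83.0 and 83.8% in the next and 96.3 and 90.9% in the strongest, each pair with overlapping intervals.

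The summits sat just upstream of those starts. Over the 117 members with a start within 1 kb, the median parental summit lay 36 bp upstream of it, and 92 (78.6%, 70.1 to 85.7) were upstream. The stretch of 100 bp before to 50 bp after the start held 89 of the 117 summits (76.1%), 76 of 140 (54.3%) among distal peaks not kept and 79.2% among kept peaks near coding ends. In position relative to a start, members were thus nearer to the kept peaks of gene ends than to distal peaks that were not kept. The latter were also weaker, with a median parental fold of 3.87 at the 140 peaks, against 8.88 at the 117 members. Positions were not compared within bins of fold, and the part of peak strength in them was not tested.

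**Figure D2:**
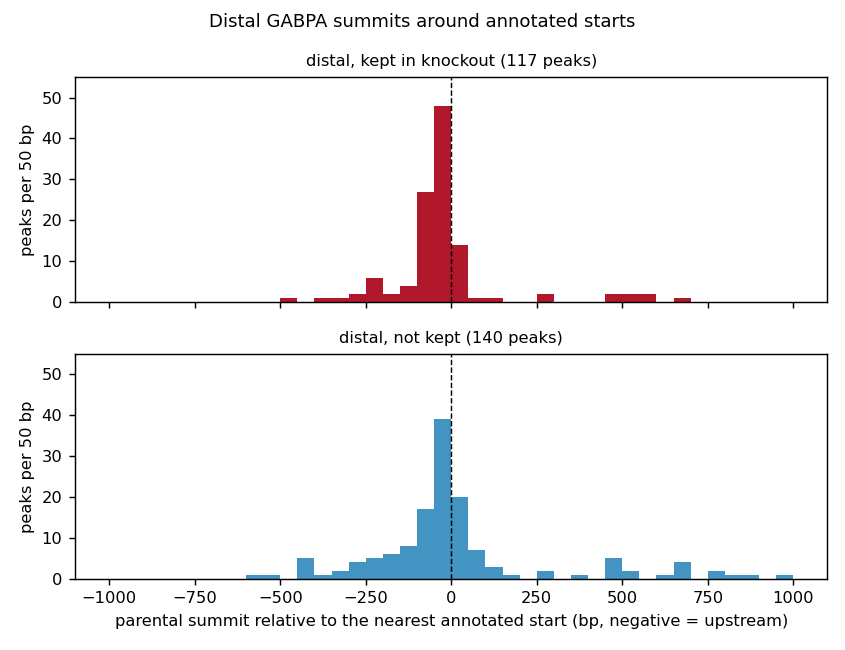
Number of peaks per 50 bp by the distance of the parental summit from the nearest annotated start (bp, negative is upstream), for 117 distal kept peaks (above) and 140 distal peaks not kept (below). In both, the highest bar is the 50 bp before the start, and 76.1% of kept but 54.3% of not kept summits lie between 100 bp before and 50 bp after it.

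At internal starts of protein-coding genes the strongest members lay in genes of varied function. CYREN, a regulator of DNA end joining, held the member with the highest parental fold (chromosome 7, 135170258 to 135171204), 1726 bp from the span end and 36 bp upstream of a start. Fold, which divides the summit pileup by the local background, is the authors' own value here and throughout and is used only within its own list. It was 10.3 in the B1 knockout, 20.3 in the ROSA26 and 20.8 in the parental list for CYREN. ZBTB45, a zinc finger gene (chromosome 19, 58519450 to 58520315, summit 32 bp upstream of a start), had folds of 11.2, 19.1 and 19.0 in the same order of lists. TNPO3, a nuclear import receptor (chromosome 7, 129054688 to 129055517, summit 1 bp upstream), had 16.2 in the B1 knockout, 16.1 in the ROSA26 and 17.5 in the parental list. In its own list each of the 3 peaks stood within the first 2% of both controls, and in the knockout list CYREN stood at 13.8%, ZBTB45 at 5.18% and TNPO3 at 5.00% from the top. TNPO3 was 1081 bp from the end of its span and 111 bp from that of the pseudogene TPI1P2.

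Others of this class had knockout peaks lower in the list. ZNF227 (chromosome 19, 44212146 to 44212838, summit 29 bp upstream of a start) had folds of 5.32 in the B1 knockout, 19.0 in the ROSA26 and 16.8 in the parental list. MEIG1, known for its part in spermatogenesis (chromosome 10, 14959455 to 14960236, summit 469 bp downstream), had 7.14, 14.1 and 16.5 in that order. ADPRHL1, an ADP-ribosylhydrolase-like gene (chromosome 13, 113448886 to 113449921, summit 219 bp upstream), had 5.19, 19.1 and 15.9, and its knockout peak ranked 999 of 1660 although its parental peak ranked 24 of 3024 by −log10 p. The repeat of 7 sites in its promoter window therefore stood at a peak near the top of both control lists and below the middle of the knockout list.

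Members inside genes of mitochondria, RNA processing and protein turnover were named after their values were seen, as examples of housekeeping genes whose peak is distal by span ends alone. MRPL44 of the mitochondrial ribosome (summit 47 bp upstream of a start) had folds of 9.88 in the B1 knockout, 14.4 in the ROSA26 and 10.3 in the parental list, and ATP5F1A of ATP synthase (57 bp upstream) had 8.60, 9.83 and 8.04. COX7A2 of cytochrome c oxidase lay 24 bp downstream of a start, with 4.40, 8.28 and 6.65. Among RNA genes, POLR2H, a subunit shared by RNA polymerases (50 bp upstream), had 5.86, 12.2 and 13.2, and LSM5, which binds U6 snRNA (4 bp downstream), had 9.06, 15.1 and 12.9. GEMIN7 of the SMN complex (12 bp upstream) had 11.7, 13.9 and 13.0. PSMA6, a proteasome subunit (9 bp downstream), had 10.4, 16.4 and 12.5, and RUVBL1, an ATPase of chromatin remodelling complexes (158 bp upstream), 13.8, 19.5 and 14.8, always in the order B1 knockout, ROSA26 and parental. All 8 lay within 200 bp of a coding start that the span ends do not show.

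Some host genes encode zinc finger proteins. Counting symbols that begin with ZNF, ZSCAN, ZKSCAN, ZBTB, ZIM, ZFP or MZF, a list drawn up after the members were seen, 14 of the 118 members inside a protein-coding span of any class lay in such a gene (11.9%, 6.64 to 19.1), and 14 of 170 distal peaks not kept inside a span lay in a zinc finger gene (8.24%, 4.58 to 13.4), with overlapping intervals. These genes encode DNA-binding proteins, many of them with a KRAB domain known for repressing transposable elements. All 14 member summits were upstream of a coding start, from 4 bp at ZNF550 to 299 bp at ZNF768, and 11 of the 14 were on chromosome 19, where zinc finger genes are clustered. Their knockout folds ran from 3.99 at ZNF112 to 16.7 at ZNF846 with a median of 8.06, and their parental folds from 6.81 at ZNF814 to 19.0 at ZBTB45 with a median of 12.7. ZNF846 (chromosome 19, 9768407 to 9769121, summit 32 bp upstream) had one of the 5 highest knockout folds of all members, with 16.7 in the B1 knockout, 17.4 in the ROSA26 and 13.2 in the parental list. Chromosome 19 held 28 members (13.7%, 9.27 to 19.1), 47 distal peaks not kept (13.5%, 10.1 to 17.5) and 10.5% of kept peaks near coding ends, against 1.81% of distal positions.

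Noncoding genes with a member at their end came from several families. By RefSeq symbol, 15 of the 70 members of this class lay near an antisense gene, 2 near a divergent transcript, 7 near a LINC gene, 2 near a small nucleolar RNA host (SNHG), 3 near a microRNA gene or host, 1 near a tRNA gene and 2 near a small nuclear RNA gene. The largest family was uncharacterised LOC genes with 35, and 6 were near other genes (FAM218A, GIHCG, JPX, MIATNB, MINCR and NORAD). Families can share a peak. Of the 114 distal peaks not kept in this class, the same families held 24, 6, 24, 1, 5, 5 and 4, LOC genes held 50, and 7 were near other genes.

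MIATNB, a lncRNA gene, had the strongest member of the class by parental fold (chromosome 22, 26672365 to 26673336, summit 52 bp upstream of its start), with folds of 11.9 in the B1 knockout, 21.8 in the ROSA26 and 20.5 in the parental list. Next were LOC124902038 inside EXOSC4, a gene of the RNA exosome (chromosome 8, 144078132 to 144079002), with 10.7, 18.3 and 20.4, and LOC105379021 (chromosome 5, 70400772 to 70401482, 7 bp from its end), with 6.35, 20.6 and 17.3 in the same order. In PSMF1, which encodes a proteasome inhibitor, the summit (chromosome 20, 1118197 to 1118969) lay 47 bp upstream of a PSMF1 start and 107 bp upstream of the lncRNA LOC105372493, with folds of 15.0 in the B1 knockout, 20.4 in the ROSA26 and 16.9 in the parental list. UBXN8 (chromosome 8, 30743859 to 30744723, 118 bp from a noncoding end) had 4.24, 17.5 and 15.6. The 6 strongest thus stood within the first 10% of both control lists by −log10 p, while their places in the knockout list ran from 0.181 to 63.8%.

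The highest knockout fold of all members was at USP30, a deubiquitinase of the outer mitochondrial membrane, where USP30-AS1 ends 478 bp away (chromosome 12, 109052146 to 109052942). Its folds were 23.4 in the B1 knockout, 19.9 in the ROSA26 and 15.9 in the parental list. The peak ranked 4 of 1660 in the knockout, 34 of 3857 in the ROSA26 and 30 of 3024 in the parental list by −log10 p, near the top of each. Its summit was 57 bp upstream of an internal USP30 start, at the site printed above, and lay within 2 bp in each of the other lists.

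Several well-studied noncoding RNA genes had a member near their end, named here after their values were seen. NORAD, which binds Pumilio proteins, had a summit 66 bp upstream of its start and folds of 12.5 in the B1 knockout, 14.5 in the ROSA26 and 10.9 in the parental list. JPX, a lncRNA of the X-inactivation centre, had a summit 30 bp upstream and folds of 5.35, 9.32 and 7.49. The snoRNA hosts SNHG21 (6.72, 12.9 and 12.3) and SNHG11 (4.45, 7.73 and 4.39) and the let-7 host MIRLET7A1HG (5.09, 10.7 and 8.52, summit 574 bp downstream of the start) followed in the same order of lists. Each of these values comes from a single library and the genes' expression was not measured here.

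Of the 39 members in no gene span, several lay at pseudogenes. The strongest was 14 bp from an end of MRPS31P5, a pseudogene of a mitochondrial ribosomal protein gene (chromosome 13, 52194103 to 52194843), with folds of 17.4 in the B1 knockout, 19.8 in the ROSA26 and 19.9 in the parental list. A second lay 3 bp from an end of the BMS1P4-AGAP5 pseudogene (chromosome 10, 73730022 to 73730867), with 15.0, 15.2 and 15.6. Reads from near-identical copies can be placed at either copy, so peaks at pseudogenes are uncertain as to their true position. A pseudogene end lay within 1 kb of 19 members (9.27%, 5.67 to 14.1), of 39 distal peaks not kept (11.2%, 8.07 to 15.0) and of 1.48% of kept peaks near coding ends.

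Away from pseudogenes, the strongest intergenic member lay 3917 bp from ZNF778 (chromosome 16, 89240688 to 89241673), with folds of 16.8 in the B1 knockout, 19.6 in the ROSA26 and 18.3 in the parental list. Its summit moved by 175 bp in the B1 knockout and by 192 bp in the ROSA26 library relative to the parental one. Others lay 11408 bp from ZBTB42 (chromosome 14, 104815802 to 104816452), with 12.4, 14.5 and 13.3, and 28393 bp from HDAC11, a histone deacetylase gene (chromosome 3, 13451551 to 13452231), with 6.53, 8.82 and 11.9. The last of the 6 strongest lay 3692 bp from XPO7 (chromosome 8, 22009935 to 22010583), with 8.07, 12.5 and 11.0. The 4 members inside a noncoding span only were in LOC124909441 near ZBTB38, LOC105377209, LOC100507513 and LOC105369575, with knockout folds of 6.25, 3.76, 4.21 and 5.16 and parental folds of 11.1, 7.31, 3.99 and 3.77.

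An annotated start within 1 kb was lacking for 79 of the 196 members, some of them near a noncoding gene end. No annotated start and no coding or noncoding gene end lay within 1 kb of 64 of the 196 (32.7%, 26.1 to 39.7), against 162 of 333 distal peaks not kept (48.6%, 43.2 to 54.2). Of the 64, 23 were inside a protein-coding span, 4 inside a noncoding span only and 37 in no span, and 13 lay within 1 kb of a pseudogene end. Only 30 were more than 10000 bp and 7 more than 50000 bp from a coding end. Their median folds were 4.60 in the B1 knockout, 7.42 in the ROSA26 and 7.45 in the parental list, below the medians of all members given next. Since starts of many genes are missing from the table, a member without one is not shown to be an enhancer.

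Over all 205 members the median fold was 5.19 in the B1 knockout (range 2.57 to 23.4), 9.53 in the ROSA26 (3.15 to 21.8) and 8.47 in the parental list (2.44 to 20.8). For kept peaks near coding ends the medians were 6.01, 10.6 and 9.24 in the same order, and for distal peaks not kept they were 4.59 in the ROSA26 and 3.91 in the parental list. By class, members near noncoding ends had medians of 5.47, 10.0 and 8.54, those inside protein-coding spans 5.26, 9.85 and 9.06, and those in no gene span 4.09, 6.84 and 7.25. The whole lists had medians of 5.81 in the B1 knockout, 6.02 in the ROSA26 and 6.36 in the parental list. Members therefore lay above the median of both control lists and below that of the knockout list. Kept peaks near coding ends also lay above the median of both control lists. A listed knockout peak was part of the choice of members, so their places in the control lists are a description and nothing is read from them. By −log10 p, 84 members (41.0%) stood in the upper 50% of the knockout list, 178 (86.8%) in that of ROSA26 and 156 (76.1%) in that of the parental list.

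**Figure D3:**
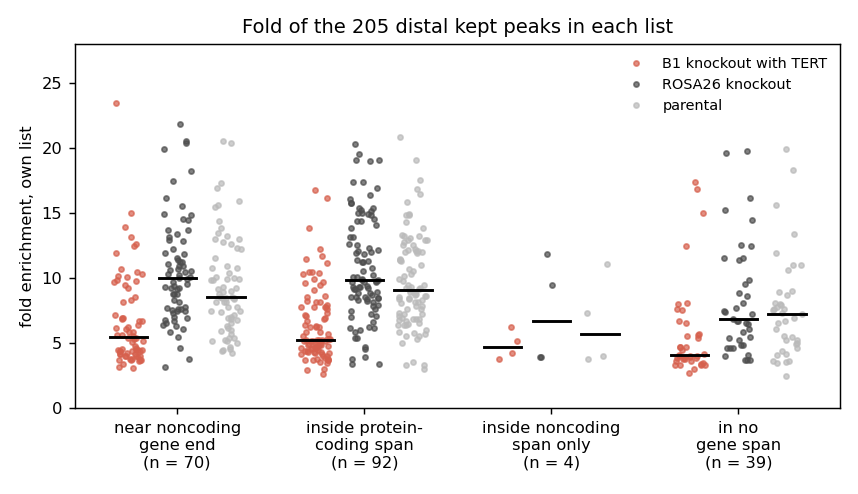
Fold enrichment (the authors' value, each in its own list) of the 205 distal kept peaks in the B1 knockout with TERT, ROSA26 knockout and parental lists, by annotation class. Each point is 1 peak and black lines are medians, which for peaks in no gene span are 4.09, 6.84 and 7.25. Folds of different lists are on scales of their own.

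Of kept peaks near coding ends, 52.5% (49.9 to 55.1) stood in the upper 50% of the knockout list, 94.3% (93.0 to 95.5) in that of ROSA26 and 84.5% (82.6 to 86.4) in that of the parental list. Members stood lower in all 3 lists, with intervals of 34.2 to 48.0, 81.4 to 91.1 and 69.7 to 81.8 that do not overlap these. A place higher up the knockout list than the parental list was found for 31 of 205 members (15.1%, 10.5 to 20.8) and for 190 of 1423 kept peaks near coding ends (13.4%, 11.6 to 15.2). These are places in lists of different lengths and show no change in binding. The pileup at the summit, solved from fold and −log10 p on the scale of each list, had a median of 67.5 over members in the B1 knockout, 194.0 in the ROSA26 and 149.7 in the parental library. The commonest background of the libraries was 9.1, 14.2 and 13.3 on the same scale, which depends on both sequencing depth and fragment length, and its part in which peaks were listed was not tested.

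The share of distal peaks kept was higher in bins of higher parental fold. In 4 bins of parental fold over control-shared peaks, 14 of 228 distal peaks (6.14%) were kept at folds of 2.05 to 4.30, 37 of 151 (24.5%, 17.9 to 32.2) at 4.30 to 6.51, 78 of 95 (82.1%, 72.9 to 89.2) at 6.53 to 9.60 and 76 of 80 (95.0%, 87.7 to 98.6) at 9.61 to 23.6. Near coding gene ends the shares were 5.76, 38.5 (34.5 to 42.6), 80.6 and 97.7%. Both kept status and distance entered the choice of members, so these shares are a description and nothing is read from their differences. The overall shares were 37.0% for distal peaks and 58.9% near coding ends. The weakest bin held 228 of 554 distal and 521 of 2415 gene-end peaks, and its part in the overall shares was not tested.

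**Figure D4:**
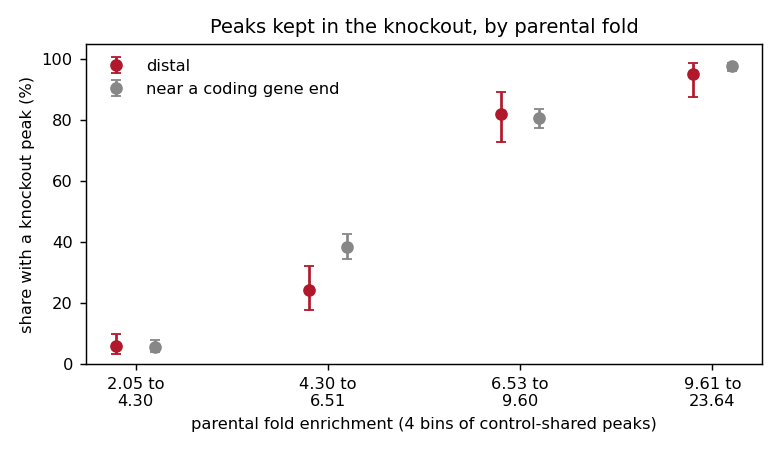
Share (%) of control-shared peaks with a B1 knockout peak in 4 bins of parental fold, for distal peaks and for peaks within 1 kb of a coding gene end, with exact 95% intervals. The shares of distal peaks run through 6.14, 24.5, 82.1 and 95.0% and those near coding ends through 5.76, 38.5, 80.6 and 97.7%, given as a description.

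Where members stood highest and lowest in the knockout list differed by locus. The largest margins toward the top of the knockout list relative to the parental one were at ZIM2-AS1 (10.3 in the B1 knockout, 6.70 in the ROSA26 and 8.78 in the parental list), LOC105369575, RAP1GAP2, MIB2 and IQCJ-SCHIP1. ZIM2-AS1, antisense to an imprinted zinc finger gene, stood at 19.3% from the top of the knockout, 51.1% of the ROSA26 and 36.9% of the parental list. RAP1GAP2, a GTPase-activating protein gene, had 3.97, 3.40 and 3.30, and MIB2, a ubiquitin ligase of the Notch pathway, 8.18, 9.72 and 7.24, in the same order. The 5 margins lay between 12.2 and 17.6 percentage points.

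The largest margins toward the bottom were wider. NCAM2, a neural cell adhesion gene (chromosome 21, 21146722 to 21147408, summit 115 bp upstream of an internal start), had folds of 3.66 in the B1 knockout, 15.2 in the ROSA26 and 14.9 in the parental list. It stood at 94.2% from the top of the knockout list, 13.4% of the ROSA26 and 10.2% of the parental list, a margin of 83.9 points. RMDN1 (3.70, 13.1 and 12.0), GNAS, the gene of the stimulatory G protein subunit (3.39, 11.2 and 10.0 at the end of GNAS-AS1), and peaks near EFCAB12 (3.81, 16.2 and 11.0) and HIP1 (3.27, 11.6 and 7.57) followed. The last pair lay at the pseudogenes RPL32P3 and PMS2P3. At each of these 5 loci the 2 control libraries placed the peak in the upper 30% of their lists and the knockout library placed it beyond 75%.

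The lowest knockout folds were 2.57 at HNRNPUL1, an RNA-binding protein gene, 2.65 at a peak 38119 bp from ZNF124, 2.90 at PFN1, which encodes the actin-binding profilin, 2.99 at PES1P1 and 3.00 at GNAI2, an inhibitory G protein gene. Parental folds at these 5 were 5.81, 3.48, 8.28, 4.36 and 4.97. PFN1 was also at the distance limit. The members just outside 1 kb were OSER1 at 1001 bp, PFN1 at 1004 bp and PSMB10, an immunoproteasome gene, at 1004 bp, with knockout folds of 4.01, 2.90 and 3.79. The kept peaks just inside were at KRT10 (951 bp), PEX16 (928 bp) and ZBTB43 (916 bp), with knockout folds of 6.90, 6.56 and 9.78. In all, 29 members lay between 1 and 2 kb from a coding end, 39 between 2 and 5 kb, 50 between 5 and 10 kb, 59 between 10 and 50 kb and 27 beyond 50 kb.

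Strong distal control peaks without a knockout peak were few. The 5 strongest were at RPL18P8, a ribosomal protein pseudogene on chromosome 11 (folds of 13.0 in the ROSA26 and 12.1 in the parental list), CZ1P-ASNS (14.4 and 11.8), ITPA, an inosine triphosphatase gene (13.2 and 10.9), TPTE2-AS1 (6.40 and 10.3) and LOC112268250 (10.5 and 9.52). The first was 67 bp from a pseudogene end and CZ1P-ASNS 16 bp from that of CCZ1P-OR7E38P, so copies elsewhere may share their reads.

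Members were chosen by overlap, which limits how far a knockout or ROSA26 summit can lie from the parental one. The median distance from the parental summit was 20 bp for the B1 knockout summit and 15 bp for the ROSA26 summit, and 175 and 189 of the 205 lay within 50 bp. Near coding ends the medians were 19 and 15 bp. A knockout summit more than 100 bp away was found for 5 members (ATG101, SH2B1, GTPBP3 and peaks near ZNF778 and RGS9), named after their values were seen, and 4 of these 5 had parental folds below 10. Members were 492 bp wide in the B1 knockout, 727 bp in the ROSA26 and 642 bp in the parental list (medians). Each had exactly 1 overlapping peak in each of the other lists.

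The GABP site was frequent in promoter windows that held a member. Of the 117 members near a start, 102 had the parental summit inside a 300-base RefSeq promoter window, from 250 bases before to 50 after the start. CCGGAAG occurred on either strand in 64 of them (62.7%, 52.6 to 72.1), in 52 of 97 windows of distal peaks not kept (53.6%, 43.2 to 63.8), in 71.5% (68.8 to 74.1) of windows of kept peaks near coding ends and in 10.3% of all 35116 windows. Coding starts held it in 42 of 71 member windows (59.2%), against 12.8% of all coding windows. LncRNA starts held it in 22 of 31 (71.0%), against 5.82% of all lncRNA windows. Among distal peaks not kept it was in 24 of 50 coding windows (48.0%) and 28 of 47 lncRNA windows (59.6%). The intervals of members and of distal peaks not kept overlapped for both kinds of start. With CGGAAG, a looser spelling chosen after the data were seen that also takes in every CCGGAAG, the shares were 80.4% for members, 72.2% for distal peaks not kept and 19.5% for all windows.

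Some windows held repeated sites. At least 2 copies were found in 19 member windows (18.6%, 11.6 to 27.6), in 6 of distal peaks not kept (6.19%, 2.30 to 13.0), in 24.1% of kept peaks near coding ends and in 1.74% of all windows. The intervals of members and of distal peaks not kept overlapped slightly. Median folds were higher in windows with more copies. The 19 members with 2 or more copies had median folds of 7.27 in the B1 knockout, 14.8 in the ROSA26 and 12.0 in the parental list, the 45 with 1 copy 5.40, 10.1 and 8.78, and the 38 with none 4.68, 9.29 and 8.31. In the weakest of 4 bins of parental fold, 0 of 2 members and 1 of 49 distal peaks not kept had at least 2 copies. From there to the strongest bin, the counts were 0 of 16 and 3 of 39, 5 of 37 (13.5%) and 1 of 7 (14.3%), and 14 of 47 and 1 of 2. Within bins these are too few to set apart.

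**Figure D5:**
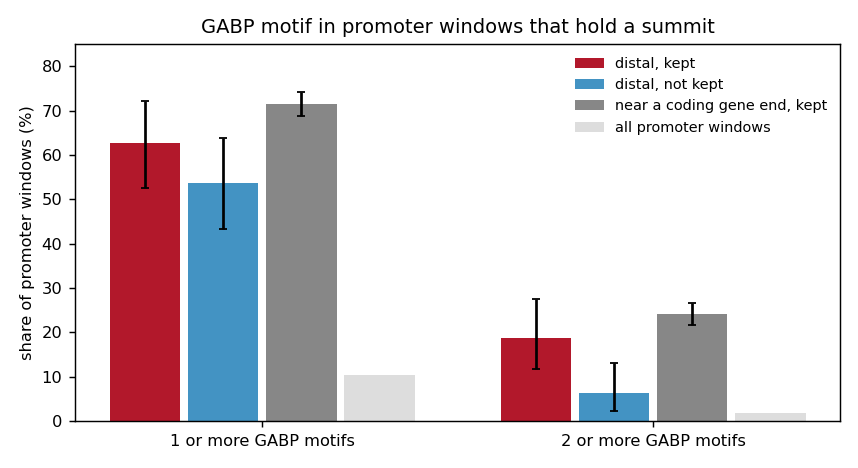
Share (%) of 300-base promoter windows with at least 1 or at least 2 copies of the GABP site on either strand, for windows holding the parental summit of distal kept peaks (102), distal peaks not kept (97), kept peaks near a coding end (1155) and for all 35116 windows, with exact 95% intervals on the first 3. Distal kept windows reach 62.7 and 18.6%, all windows 10.3 and 1.74%.

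The copy nearest to the summit lay close to it in each library. Its median distance was 18.5 bp from the B1 knockout summit, 12 bp from the ROSA26 summit and 15.5 bp from the parental summit, and 54, 57 and 57 of the 64 lay within 50 bp. Medians for kept peaks near coding ends were 18, 17 and 16 bp in that order. Distal peaks not kept had 18 bp in the ROSA26 and 12 bp in the parental library. The windows were chosen to hold the parental summit, which limits all these distances. Sites of 2 other factors were searched. TGANTCA, the AP-1 site, occurred in 2 of 102 member windows (1.96%), against 7.71% of all windows. It was as rare in windows of distal peaks not kept (2.06%) and of kept peaks near coding ends (2.94%), so the low share is not particular to members. A core of the CTCF site was in 0 of 102 and in 0.165% of all, a rate too low for 102 windows to show a difference. GGAA alone, the ETS core that every CCGGAAG contains, was in 102 of 102 and in 95.5% of all windows, so it sets nothing apart. Member windows had a median GC content of 62.5% and 23 CpG pairs, against 63.3% and 21 in windows of distal peaks not kept and 58.7% and 14 in all windows. A copy in the window is a description of its letters and not a test of binding, and members outside the windows, which include all 8 on chromosome 8, were not searched.

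Some members inside protein-coding spans shared their gene with another GABPA peak. Of the 118 members inside a span, 23 (19.5%, 12.8 to 27.8) lay in a gene that also had a parental peak at an end of its span, against 15 of 170 distal peaks not kept (8.82%, 5.02 to 14.1), shares whose intervals overlap. RABGEF1 and SNU13 held 2 members each. Over all members, and with the SNU13 pair included, 1 pair of neighbours lay within 10000 bp and 7 within 50000 bp, and 1 member lay on an unplaced contig outside the gene table.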

How the data were processed

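Each of the 3 ChIP libraries has 1 peak list. Per the submitters' processing notes the build is hg38 and the tools were Bowtie2, SAMtools and MACS2, and no version, threshold or use of the inputs is given in the sources used here. The deposited lists give for each peak a fold (a ratio of summit pileup to local background), the −log10 of its p-value and q-value, and a score, all the authors' values. The score was not used. No file gives read totals, so depth is known only through the background solved from fold and −log10 p, a step tested on simulated data for the members' pileup (567 of 600 values within 2%, largest error 4.94%).

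The summit is the peak start plus the summit offset, 1-based. Peaks overlapping by at least 1 bp were called shared. Gene spans came from a RefSeq gene table for GRCh38.p14, the same coordinates as hg38, with 20056 protein-coding genes, and 300-base promoter sequences from RefSeq of the same build. The planned motif search within 100 bp of every summit was replaced by these promoter windows, since no genome was used here. The members and lists were chosen with earlier results of these data known. Peaks named are the 6 highest parental folds per class, the 5 highest and 5 lowest knockout folds, the 5 largest differences of place each way, the 3 nearest each side of the 1 kb limit and the 5 strongest distal peaks not kept, and others are marked in the text. With 1 library per condition no test was made. Python 3.11.15, pandas 2.3.3, NumPy 2.4.6, SciPy 1.17.1 and matplotlib 3.10.9 were used.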

Additional observations from a re-analysis of the deposited data

How the results depend on the processing

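Of 40 values recomputed under other settings, 30 stayed within 1.5 times the count or within the interval of the value as reported, and 10 moved. A gene-end limit of 500 bp gave 239 members (36.7% kept) and one of 2 kb gave 176 (37.3%). An overlap of 50% of the shorter peak gave 205, and a −log10 q of at least 10 gave 179 (37.1%). With the strongest 1660 peaks of each list, 156 of 184 distal control-shared peaks were kept (84.8%) and the median parental fold was 9.36. Counting ends of noncoding genes left 135 members. Counting annotated protein-coding starts as ends, chosen after seeing the data, left 121 (30.9% kept). Taking protein-coding spans first put 57.6% of members inside them and 21.5% near noncoding ends. With pseudogenes as noncoding genes, 41.5% were near a noncoding end and 13.7% in no span. The looser CGGAAG spelling, also added later, gave a motif share of 80.4%. Motif windows of 50 and 200 bp around the summit were not run, since no genome was used here. No paired analysis was possible because each condition has 1 ChIP library and no test was made. The knockout list is the shortest and its background the lowest, so a peak missing from it may lie below its limit.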
